A study of Mus musculus with 4 samples.

Results

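Autophagy, lysosome and V-ATPase genes were read across PW1-silenced and control AdmMABs. The members were the genes whose symbol starts with Atp6v or with Atg and a number, the cathepsins named by Cts and a single letter, and a short list of further autophagy and lysosome genes that runs through Ulk1, Becn1, Map1lc3b, Sqstm1, Lamp1 and Tfeb. The rule found 75 of the 19938 genes that have a probe set with exactly 1 gene symbol. The 75 genes have 82 such probe sets, and the brightest probe set stood for each gene. Atp6v0c, Atp6v1fnb, Becn2, Ctsm and Optn had no probe set of their own and were not analysed here.

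AdmMABs are adult mouse mesoangioblasts, progenitors of the vessel wall with the capacity to form skeletal muscle, and here they were a polyclonal population from the tibialis anterior of adult male C57/BL6 mice. The shPW1 cells carried a lentiviral short hairpin RNA against PW1, a zinc-finger protein encoded by Peg3, and the shCtrl cells carried a lentiviral scrambled hairpin that matches no mouse sequence. Both groups were kept proliferating in serum-rich medium until RNA extraction, and 2 RNA extractions per group were hybridised to Affymetrix Mouse Gene ST arrays, giving 4 arrays. A single hairpin was used and the replicates are extractions from the transduced cells, so a p-value here reflects how far extractions differ, possibly for technical reasons, and PW1 loss cannot be told apart from other effects of that hairpin or its vector. Peg3 read 6.22 and 6.47 log2 units on the shPW1 arrays and 8.67 and 8.70 on the shCtrl arrays, a log2 fold change of -2.34 (SE 0.10, limma adjusted p = 0.00428). The median of all array rows was 5.44 and 5.40 in shPW1 cells and 5.47 and 5.49 in shCtrl cells. Values are log2 expression, and a level is compared only within a probe set, never between genes.

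Autophagy encloses cytoplasm in a double membrane, the autophagosome, and hands it to the lysosome for digestion. A kinase complex starts the process, a lipid kinase marks the membrane, and ubiquitin-like conjugation chains couple the Atg8 family to the growing membrane. The V-ATPase is a rotary proton pump, with a cytosolic V1 sector that hydrolyses ATP and a membrane V0 sector that carries protons, and it acidifies the lysosome in which cathepsins and other hydrolases work. TFEB and TFE3 are transcription factors that bind the CLEAR element in promoters of many of these genes. Autophagy is known to support the quiescence and activation of muscle stem cells.

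In shPW1 AdmMABs 4 members rose, 2 fell and 69 did not pass the test. Atg16l1, Atg3 and Atg12 of the conjugation machinery and the V-ATPase subunit Atp6v1a were higher, and the cathepsin Ctsz and the conjugation gene Atg16l2 were lower. The test was limma with Benjamini-Hochberg adjustment over all 21789 probe sets of 1 symbol, and a call is an adjusted p under 0.05. The 6 called members are 8% of the 75, beside 9.28% of all genes. Of all genes 4.93% were higher and 4.35% lower, so the share of members called lay near the background. Subtracting each array's median gave 6 members higher and 1 lower, and 1477 genes higher and 727 lower over all genes, beside 982 and 868 on the values as deposited.

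Most members differed little between shPW1 and shCtrl cells. The log2 fold change had a median of 0.0016 over the members and ranged from -0.58 to 0.45, with 38 members positive and 37 negative. Over all genes the median was -0.01. The SD of the log2 fold change was 0.20 among the members and 0.25 among all genes. The median absolute log2 fold change was 0.13 among the members and 0.12 among all genes. The 95% confidence interval lay within 0.5 of zero on the log2 scale for 63 of the 75 members, and a single member, Ctsz, had a fold change larger than that.

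The arrays of the groups did not overlap in 54 members (72%), 28 with both shPW1 arrays above both shCtrl arrays and 26 with both below, beside 55.5% of all genes. Members tend to be bright. The mean of the 4 arrays was at least 5 log2 units in 62 of the 75, and all 6 called members were among these (9.68%), beside 13.2% of genes as bright. In the same 62 members 47 did not overlap (75.8%), beside 65.7% of genes as bright. An unadjusted p under 0.05 was reached by 23 members (30.7%), beside 27.8% of all genes. In bulk RNA fewer cells of a kind and less RNA per cell cannot be told apart.

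The number of calls moved with the test. With dim probe sets left out, 13 of 62 members passed (21%), beside 25.4% of genes, and with a trended, robust variance prior 18 of 75 passed (24%), beside 21.6%. The methods' analysis of variance, at an unadjusted p of 0.05 and a fold change over 1.2, took 11 members (14.7%), beside 11.9%. When all rows of the array table entered the limma fit and its adjustment no member passed (0%), beside 0.341% of genes. In that fit 19 members had an unadjusted p under 0.05. In the main fit 23 members did, beside 27.8% of all genes. With any single array left out, whichever group it came from, the median log2 fold change of the members ran from -0.0029 to 0.0271. Such a fit has 1 residual degree of freedom and takes the spread between replicates from the other group alone, so that few genes could pass by design.

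**Figure D1:**
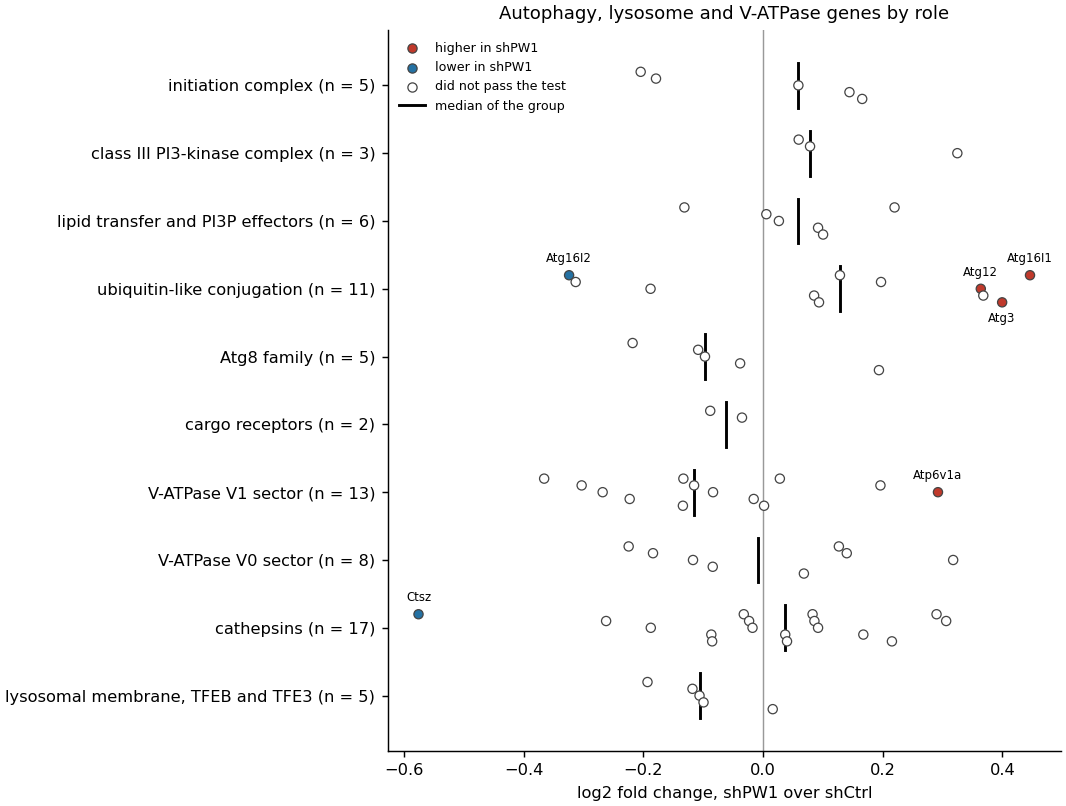
Log2 fold change (x axis, shPW1 over shCtrl) of each of the 75 members, by role (y axis, number of members in brackets). Filled points passed the limma test, open points did not and vertical bars are group medians. The conjugation genes hold 4 of the 6 calls, and all but Ctsz lie within 0.5 of zero.

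The sequence letters of the promoters bear on the TFEB branch, so the 7 members whose promoter holds the core of the CLEAR element are shown with the 20 bases on either side. Promoters (250 bases before to 50 bases after the start of each gene) came from RefSeq on GRCm38.p6, where 60 of the 75 members matched with 68 promoters. The letters searched were TCACGTGA, which read the same on both strands and contain the E-box CACGTG. Capitals mark the core, and sequences run 5′ to 3′ on the strand of the gene.
Atg3, chr16:45158737-45158784, plus strand: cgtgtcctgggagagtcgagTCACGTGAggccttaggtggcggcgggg
Atp6v1a, chr16:44139364-44139411, minus strand: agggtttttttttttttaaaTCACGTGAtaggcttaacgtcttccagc
Atp6v0e, chr17:26676378-26676425, plus strand: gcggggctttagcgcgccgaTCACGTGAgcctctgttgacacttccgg
Ctsa, chr2:164833740-164833787, plus strand: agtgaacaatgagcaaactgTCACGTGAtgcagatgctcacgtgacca
Ctsd, chr7:142387899-142387946, minus strand: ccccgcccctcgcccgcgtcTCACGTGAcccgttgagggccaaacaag
Atp6v0d1, chr8:105566041-105566088, minus strand: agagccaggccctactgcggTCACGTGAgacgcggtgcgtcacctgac
Mcoln1, chr8:3500453-3500500, plus strand: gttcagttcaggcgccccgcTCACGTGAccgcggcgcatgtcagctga

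The core stood in 7 of the 68 member promoters (10.3%) and in 320 of all 32851 promoters (0.974%). Its first base lay 132 bases before the start in Atp6v1a, 99 in Ctsd, 72 in Atg3, 46 in Mcoln1, 13 in Ctsa and 4 in Atp6v0d1, and 2 bases after it in Atp6v0e. Ctsa, the protective protein of lysosomal sialidase and galactosidase, holds a further copy within the stretch shown. The shorter E-box was found in 14 of the 68 member promoters (20.6%) and in 7.15% of all promoters. A match is a description of letters and not a bound site. The CLEAR element is known from promoters of many of these genes, so the higher share among members is not an independent finding.

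The genes with the core did not share a direction. Atg3 and Atp6v1a were called higher, with log2 fold changes of 0.40 and 0.29. Atp6v0e, at 0.14, Ctsa, at 0.09, Ctsd, at -0.09, Atp6v0d1, at -0.18, and Mcoln1, at -0.19, did not pass the test. Of these 7 genes 4 were positive and 3 negative, with a median of 0.09, while the 53 matched members without the core had 26 positive and 27 negative values and a median of -0.04. The binding motif described for PW1, AGTNNCNNNTGGCT, was searched on both strands and matched in 0 of the 68 member promoters and in 159 of all promoters (0.484%). At so low a share 68 promoters are too few to tell 0 matches from the background, and no conclusion is drawn.

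The conjugation machinery held 4 of the 6 calls, 3 higher and 1 lower among 11 genes. All 11 had a mean of at least 5 log2 units, and 13.2% of genes as bright were called in either direction. Of all genes 4.93% were higher and 4.35% lower. After quantile normalization the conjugation machinery held 3 higher and 0 lower, beside 963 higher and 937 lower of all 19938 genes. It held the same after subtraction of array medians, beside 1477 higher and 727 lower. The sequence of the pathway begins with Atg7, the E1-like activating enzyme, which read 7.59 and 7.52 in shPW1 cells and 7.91 and 7.83 in shCtrl cells. The shPW1 arrays lay below both shCtrl arrays, and the log2 fold change of -0.31 (SE 0.07) had a limma adjusted p of 0.0578, just outside the threshold. Atg7 passed once dim probe sets were removed (adjusted p = 0.0199), where 25.4% of genes were called. It did not pass after quantile normalization (adjusted p = 0.0547) or subtraction of array medians (adjusted p = 0.0976). Atg3, the E2-like enzyme that passes the Atg8 family to its lipid, read 8.95 and 8.96 in shPW1 cells and 8.55 and 8.56 in shCtrl cells. The replicates lay close together and Atg3 was 1.32-fold higher in shPW1 cells (log2 fold change 0.40, SE 0.06, limma adjusted p = 0.0263).

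Atg10, the E2-like enzyme of the other chain, read 6.74 and 6.79 in shPW1 cells and 6.55 and 6.24 in shCtrl cells. The shCtrl arrays were spread by more than the gap to the shPW1 arrays, and the difference of 0.37 (SE 0.12) had an adjusted p of 0.13. Atg12, the ubiquitin-like protein that Atg10 attaches to Atg5, read 8.12 and 8.13 in shPW1 cells and 7.78 and 7.74 in shCtrl cells. Both shPW1 arrays were higher and Atg12 rose by 0.36 on the log2 scale (SE 0.06, limma adjusted p = 0.0330). Atg5, which accepts Atg12, read 8.001 and 8.11 in shPW1 cells and 8.31 and 8.18 in shCtrl cells, a difference of -0.19 with an adjusted p of 0.208.

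Atg16l1 and its paralogue Atg16l2 went opposite ways. Atg16l1, which binds the Atg12-Atg5 conjugate and places lipidation on the membrane, read 8.25 and 8.31 in shPW1 cells and 7.84 and 7.83 in shCtrl cells. It was the member that rose most, 1.36-fold (log2 fold change 0.45, SE 0.06, limma adjusted p = 0.0236). Atg16l2 read 6.23 and 6.31 in shPW1 cells and 6.57 and 6.62 in shCtrl cells. The groups did not overlap, and Atg16l2 fell by 0.32 on the log2 scale (SE 0.06, limma adjusted p = 0.0496). This call rested on the scaling, since the adjusted p was 0.0638 after quantile normalization and 0.0919 after subtraction of array medians. The 4 Atg4 proteases, which trim Atg8 proteins and release them from the membrane, lay between 0.09 (Atg4b) and 0.20 (Atg4c), and none passed.

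**Figure D2:**
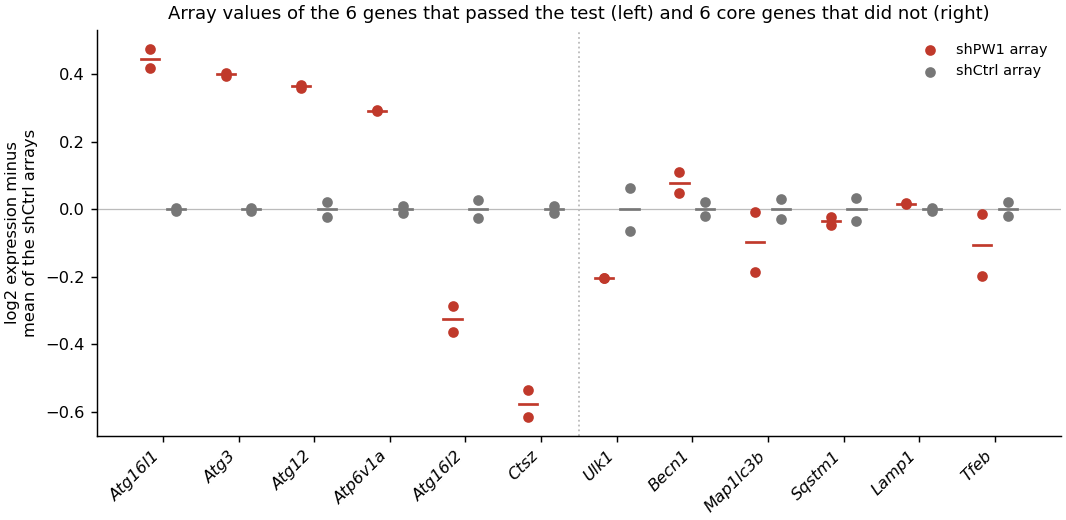
Log2 expression on each array (y axis, minus the mean of the shCtrl arrays of that gene) for the 6 members that passed the test and for 6 core genes that did not (x axis). Points are arrays, shPW1 left of shCtrl, and dashes are means of 2 arrays. The group means of the called genes lie 0.29 to 0.58 apart, while Map1lc3b, Sqstm1 and Tfeb overlap.

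The substrates of the conjugation chains, the Atg8 family, held no call among 5 genes. Map1lc3a, which encodes an LC3 protein, read 6.89 and 6.91 in shPW1 cells and 7.07 and 7.17 in shCtrl cells (log2 fold change -0.22, SE 0.07, limma adjusted p = 0.117). Map1lc3b, the LC3 form usually followed as a marker of autophagosomes, read 8.38 and 8.56 in shPW1 cells and 8.59 and 8.53 in shCtrl cells. These values overlapped and gave -0.10 with a 95% confidence interval of -0.32 to 0.12. Gabarapl2 was the positive member at 0.19 (adjusted p = 0.126), and the others were Gabarap at -0.11 and Gabarapl1 at -0.04.

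Cargo receptors bind both ubiquitin and the Atg8 family. Sqstm1, which encodes p62 and is itself degraded by autophagy, read 11.35 and 11.38 in shPW1 cells and 11.43 and 11.36 in shCtrl cells. The values overlapped, and the log2 fold change of -0.04 had a 95% confidence interval of -0.19 to 0.12. Nbr1, a receptor of related build, gave -0.09 (adjusted p = 0.426). These are transcript levels, and neither protein nor flux through autophagy was measured on the arrays.

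The upstream complexes held no call. Ulk1, the kinase that starts autophagy, read 6.82 and 6.82 in shPW1 cells and 7.09 and 6.96 in shCtrl cells. Both shPW1 arrays were the lower ones, and the difference was -0.20 (SE 0.07, limma adjusted p = 0.148). Its relative Ulk2 gave -0.18 (adjusted p = 0.253), and the partners Rb1cc1, Atg101 and Atg13 gave 0.17, 0.14 and 0.06. Becn1, the scaffold of the class III PI3-kinase complex, read 8.9997 and 9.06 in shPW1 cells and 8.97 and 8.93 in shCtrl cells, with a log2 fold change of 0.08 and a 95% confidence interval of -0.08 to 0.24. Atg14, which directs that complex to autophagy, gave 0.32 (SE 0.14, adjusted p = 0.223), and between 0.18 and 0.47 with 1 array left out, lowest without shPW1 replicate 2 or shCtrl replicate 2. Uvrag, its alternative partner, gave 0.06.

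The 6 genes of lipid transfer and PI3P binding ranged from -0.13 (Wipi1) to 0.22 (Atg9b). Wipi1, which binds the lipid made by the PI3-kinase, had an adjusted p of 0.221, and Atg9b, a relative of the lipid scramblase Atg9a, had one of 0.275. Leaving out shPW1 replicate 1 gave 0.08 for Atg9b, and leaving out shPW1 replicate 2 gave 0.36. Atg2a and Atg2b, lipid transfer proteins, gave 0.03 and 0.09.

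The V-ATPase held 1 call among 21 genes, in the V1 sector, beside 9.28% of all genes called. Atp6v1a, the catalytic subunit that hydrolyses ATP, read 10.08 and 10.08 in shPW1 cells and 9.80 and 9.78 in shCtrl cells. Replicates lay close together, and Atp6v1a rose by 0.29 on the log2 scale (SE 0.06, limma adjusted p = 0.0476). Its adjusted p was 0.0334 after subtraction of array medians and 0.0142 with dim probe sets left out, but 0.0605 after quantile normalization. With quantile normalization the V1 sector held no higher call and 1 lower call, Atp6v1e1 (adjusted p = 0.0386). Other V1 subunits had values of the opposite sign. Of the 13 V1 genes 4 were positive and 9 negative, with a median of -0.12, and the median kept its sign under both other scalings (-0.08 after quantile normalization and -0.06 after subtraction of array medians).

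The 3 V1 genes with the lowest fold changes lay just outside the threshold. Atp6v1f, a small subunit of the central rotor, read 9.04 and 8.90 in shPW1 cells and 9.36 and 9.30 in shCtrl cells (log2 fold change -0.37, SE 0.07, limma adjusted p = 0.0535), and its other probe set gave -0.35 (adjusted p = 0.0577). Atp6v1e1, of the peripheral stalk, read 8.82 and 8.92 in shPW1 cells and 9.20 and 9.14 in shCtrl cells (-0.30, SE 0.07, adjusted p = 0.0646). Atp6v1g1, its partner in the stalk, read 9.87 and 9.94 in shPW1 cells and 10.15 and 10.21 in shCtrl cells (-0.27, SE 0.06, adjusted p = 0.0727). In each of the 3 genes both shPW1 arrays lay below both shCtrl arrays. All 3 passed once dim probe sets were removed (adjusted p = 0.019, 0.0235 and 0.0264), beside 25.4% of genes. They also passed under the trended prior (21.6% of genes) and by the methods' analysis of variance (11.9%). None of the 3 passed after subtraction of array medians (adjusted p = 0.0615, 0.131 and 0.158) or with all rows tested. Atp6v1b2, the partner of Atp6v1a in the catalytic ring, gave -0.02 with a 95% confidence interval of -0.17 to 0.13, and the regulatory subunit gene Atp6v1h gave 0.20 (adjusted p = 0.135).

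The V0 sector held no call among 8 genes, with 4 positive and 4 negative values. Its median of -0.01 changed sign under the other scalings (0.03 after quantile normalization and 0.05 after subtraction of array medians). Over all genes these medians were -0.01, -0.003 and 0.05. Atp6v0a1, a proton channel subunit, gave -0.22 (SE 0.08, adjusted p = 0.169). Atp6v0d2, an isoform known from osteoclasts, read 3.61 and 3.45 in shPW1 cells and 3.20 and 3.22 in shCtrl cells, close to the bottom of the scale (0.32, SE 0.08, adjusted p = 0.0772). It passed after subtraction of array medians (adjusted p = 0.0328). The widely expressed isoform Atp6v0d1 gave -0.18 (adjusted p = 0.255).

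**Figure D3:**
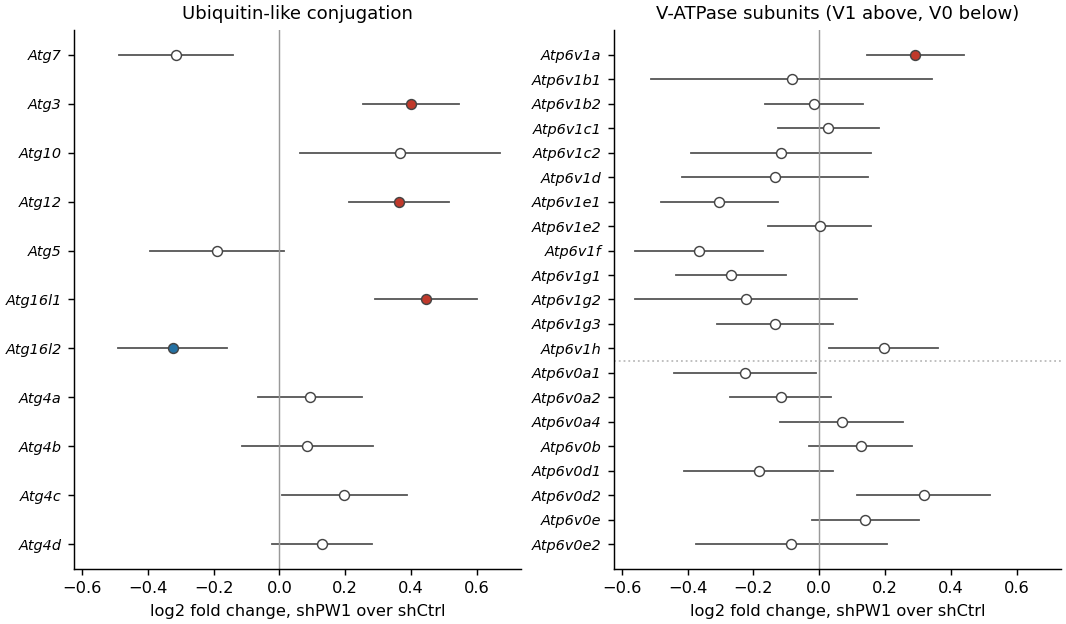
Log2 fold change (x axis, shPW1 over shCtrl) of the conjugation genes (left) and of the V-ATPase subunits (right), one gene a row. Lines are 95% confidence intervals from limma, and filled points passed the test (red higher in shPW1, blue lower). Atp6v1a stands at 0.29, and Atp6v1e1, Atp6v1f and Atp6v1g1 at -0.30, -0.37 and -0.27.

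Cathepsins are the lysosomal proteases, and 1 of 17 passed the test, beside 9.28% of all genes. Ctsz, a carboxypeptidase, read 10.39 and 10.47 in shPW1 cells and 10.99 and 11.02 in shCtrl cells. The shPW1 arrays lay well below the shCtrl arrays and Ctsz was 1.49-fold lower in shPW1 cells, the largest change of any member (log2 fold change -0.58, SE 0.06, limma adjusted p = 0.0166). The mean of the 4 arrays was under 5 log2 units in 8 of the 17 cathepsins. Over the 17 genes 9 values were positive and 8 negative.

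The other bright cathepsins differed less. Ctsl, a cysteine endopeptidase, read 10.39 and 10.42 in shPW1 cells and 10.21 and 10.17 in shCtrl cells (log2 fold change 0.22, SE 0.06, limma adjusted p = 0.0957). Ctsb, a related protease, read 10.76 and 10.78 in shPW1 cells and 10.80 and 10.80 in shCtrl cells, and its log2 fold change of -0.02 turned to 0.03 after subtraction of array medians. Ctsd, the main aspartic protease of the lysosome, read 10.73 and 10.82 in shPW1 cells and 10.87 and 10.86 in shCtrl cells (-0.09, adjusted p = 0.44). For Ctsb and Ctsd the 95% confidence intervals ran from -0.17 to 0.12 and from -0.25 to 0.08.

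The remaining cathepsins with larger values were dim or noisy. Ctsc, which activates granule proteases, read 5.13 and 5.41 in shPW1 cells and 4.79 and 5.14 in shCtrl cells, overlapping groups with a difference of 0.31 (SE 0.16, adjusted p = 0.292). Ctsg, a granule protease of neutrophils, read 4.39 and 4.34 in shPW1 cells and 4.10 and 4.05 in shCtrl cells (0.29, SE 0.06, adjusted p = 0.0557). It passed after quantile normalization (adjusted p = 0.0431) and after subtraction of array medians (adjusted p = 0.0357), which made 2 of 17 cathepsins called. Over all 19938 genes the first scaling gave 963 higher and 937 lower, and the second 1477 higher and 727 lower. Ctsk, the collagen-degrading cathepsin of osteoclasts, read 3.85 and 4.01 in shPW1 cells and 3.78 and 3.90 in shCtrl cells (0.09, adjusted p = 0.59).

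Lysosomal membrane proteins and the factors TFEB and TFE3 held no call among 5 genes. Lamp1, a major glycoprotein of the lysosomal membrane, read 10.93 and 10.92 in shPW1 cells and 10.91 and 10.91 in shCtrl cells, a difference of 0.02 that turned to -0.02 after quantile normalization. Its relative Lamp2 read 9.69 and 9.67 in shPW1 cells and 9.79 and 9.80 in shCtrl cells (-0.12, adjusted p = 0.261). Mcoln1, the calcium channel of the lysosome, read 8.14 and 8.16 in shPW1 cells and 8.34 and 8.35 in shCtrl cells (-0.19, SE 0.06, adjusted p = 0.111). Tfeb read 6.72 and 6.54 in shPW1 cells and 6.75 and 6.71 in shCtrl cells, overlapping groups with a difference of -0.11 (95% confidence interval -0.32 to 0.11), and Tfe3 gave -0.10 (adjusted p = 0.579).

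Other genes of the same pathway, outside the members, were read from 6 lists. Of 153 listed genes 146 were measured, and 5 were higher, 19 lower and 122 not called. The 24 calls are 16.4% of the 146. Of these genes 138 had a mean of at least 5 log2 units, and 23 of them were called (16.7%), beside 13.2% of genes as bright. The median log2 fold change was -0.04, beside -0.01 over all genes. After subtraction of array medians it was 0.02, beside 0.05 over all genes. With that step 12 of the 146 were higher and 17 lower, beside 1477 and 727 of all genes. In a fit with any single array left out few genes could pass by design, and no conclusion about the 146 is drawn from it.

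Soluble lysosomal hydrolases and their cofactors had 6 lower and 1 higher of 31 measured (22.6%), beside 13.2% of genes as bright. Negative values were 24 of the 31, beside 10560 of all 19938 genes. The median was -0.16, and it stayed negative after quantile normalization (-0.21) and after subtraction of array medians (-0.10). Manba, the beta-mannosidase, read 5.02 and 4.998 in shPW1 cells and 6.12 and 5.91 in shCtrl cells (log2 fold change -1.01, SE 0.09, limma adjusted p = 0.012). Gm2a, the activator of ganglioside breakdown, fell by 0.73 (adjusted p = 0.0291), Gusb, the beta-glucuronidase, by 0.54 (adjusted p = 0.0176) and Glb1, the beta-galactosidase, by 0.46 (adjusted p = 0.0417). The single hydrolase that rose was Galc, the galactosylceramidase, at 0.42 (adjusted p = 0.0295), named after its value was seen.

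Among lysosomal membrane and sorting proteins 3 of 28 rose and 2 fell. Of all genes 9.28% were called, and of genes with a mean of at least 5 log2 units 13.2%. Igf2r, the large mannose 6-phosphate receptor that sorts hydrolases to the lysosome, read 5.97 and 6.33 in shPW1 cells and 7.14 and 7.12 in shCtrl cells (log2 fold change -0.98, SE 0.13, limma adjusted p = 0.0236). Tmem175, a lysosomal ion channel, fell by 0.57 (adjusted p = 0.0147). The genes that rose were Nagpa, the uncovering enzyme of the mannose 6-phosphate tag, at 0.42 (adjusted p = 0.0245), Slc36a1, an amino acid transporter, at 0.38 (adjusted p = 0.0348) and Gnptab, which starts the tag, at 0.33 (adjusted p = 0.0396). Gnptab was named after its value was seen. None of the 6 measured cathepsin inhibitors passed.

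The other autophagy machinery had 5 lower and none higher of 35, and 1 of the 35 had a mean under 5 log2 units. Of genes with a mean of at least 5 log2 units 13.2% were called in either direction, and of all genes 4.35% were lower and 4.93% higher. The split of the 35 moved with the scaling. It was 5 lower and 1 higher after quantile normalization and 3 lower and 2 higher after subtraction of array medians. With the latter the median of the list turned to 0.03, beside -0.03 as deposited. That step shifts every gene alike, and the median over all genes went from -0.01 to 0.05. Bnip3, a mitophagy receptor, read 7.29 and 7.38 in shPW1 cells and 8.24 and 8.21 in shCtrl cells (log2 fold change -0.89, SE 0.06, limma adjusted p = 0.00781). Pink1, the kinase that marks damaged mitochondria, fell by 0.50 (adjusted p = 0.0249), Nrbf2, of the Becn1 complex, by 0.44 (adjusted p = 0.0276) and Trp53inp2 by 0.37 (adjusted p = 0.0387). The remaining one, Tmem41b, a lipid scramblase, fell by 0.29 and was named after its value was seen.

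Of the genes of mTORC1, AMPK and nutrient sensing, which set the rate of autophagy, 6 of 36 fell and 1 rose. Of all genes 9.28% were called, and of genes with a mean of at least 5 log2 units 13.2%. After subtraction of array medians 6 of the 36 were lower and 5 higher, beside 727 lower and 1477 higher over all genes. The median of the 36 turned to 0.03 with that step, beside -0.03 as deposited, while the median over all genes went from -0.01 to 0.05. Rragb, a Rag GTPase that recruits mTORC1 to the lysosome, read 3.76 and 3.69 in shPW1 cells and 5.76 and 5.61 in shCtrl cells. The shPW1 arrays lay near the bottom of the scale, and the log2 fold change was -1.96 (SE 0.08, limma adjusted p = 0.00383). Prkaa1, the catalytic AMPK subunit, fell by 0.71 (adjusted p = 0.0124), Deptor, an mTOR inhibitor, by 0.70 (adjusted p = 0.0117) and Sesn3, a sestrin, by 0.66 (adjusted p = 0.0106). The gene that rose without that step was Flcn, folliculin, at 0.53 (adjusted p = 0.0182), named after its value was seen. Of 10 other transcription factors of lysosome and autophagy genes none passed.

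**Figure D4:**
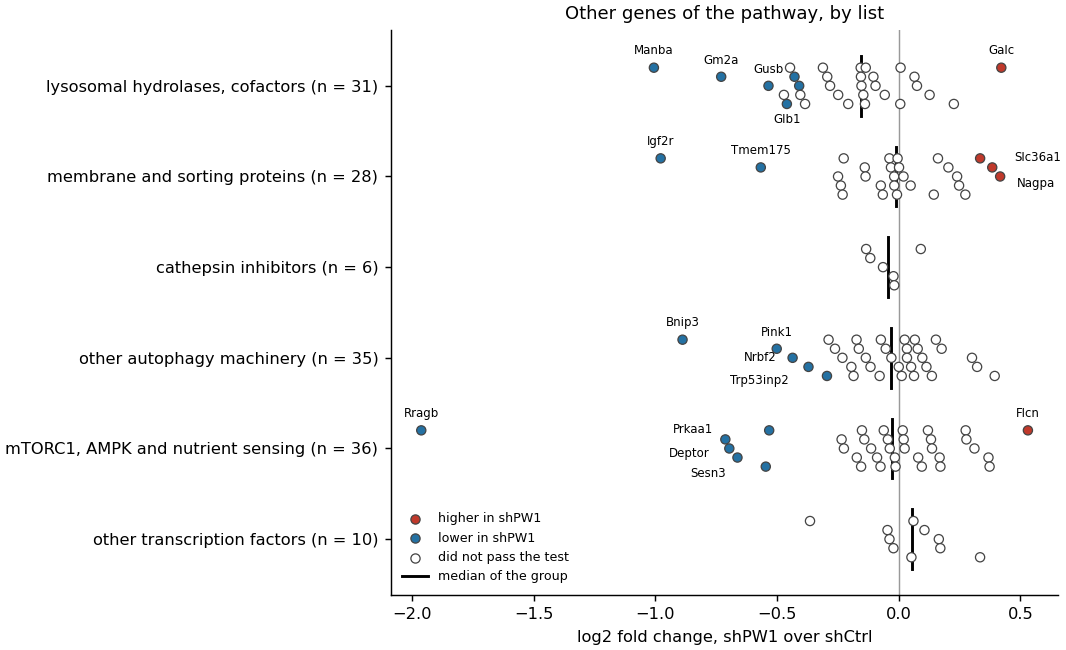
Log2 fold change (x axis, shPW1 over shCtrl) of the other genes of the pathway in 6 lists (y axis, measured genes in brackets). Filled points passed the limma test, open points did not and vertical bars are medians, with the farthest called genes labelled. Of the 31 hydrolases 24 sit to the left of zero, with a median of -0.16, and Rragb stands farthest out at -1.96.

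Cell type markers moved with the comparison in part. Macrophage and leukocyte markers, from cells rich in lysosomes, had 0 of 15 called and 11 of 15 with a mean under 5 log2 units, and their mean level was 4.73 and 4.59 in shPW1 cells and 4.62 and 4.74 in shCtrl cells. None of 7 osteoclast or 8 endothelial markers passed the limma test, with 1 and 0 at an unadjusted p under 0.05. Mesoangioblast and pericyte markers had 5 lower and 1 higher of 9. Of all genes 9.28% were called, and of genes with a mean of at least 5 log2 units 13.2%. The mean level of these markers was 8.08 and 8.07 in shPW1 cells and 8.35 and 8.37 in shCtrl cells. Those lower were Anpep (-1.06), Cspg4 (-0.66), Des (-0.55), Pdgfrb (-0.45) and Mcam (-0.35), and Cd44 was higher (0.35). Over the 9 markers 6 values were negative and 3 positive, among them Acta2 at 0.16 (limma adjusted p = 0.176). Alpl, the alkaline phosphatase by which mesoangioblasts are often chosen, read 5.79 and 5.73 in shPW1 cells and 5.75 and 5.95 in shCtrl cells, and the pericyte gene Rgs5 lay under 4 on all 4 arrays. Satellite cell and myoblast markers had 3 lower, Myod1 (-1.72), Myog (-0.71) and Cdh15 (-0.64), and 1 higher, Vcam1 (0.44), of 8. All 8 had a mean of at least 5 log2 units, and 13.2% of genes as bright were called. The 4 not called were Myf5 at 0.15, Pax3 at -0.01, Pax7 at -0.03 and Itga7 at -0.13. The part of these shifts in the values of the members was not tested.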

How the data were processed

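Total RNA of shPW1 and shCtrl AdmMABs was hybridised to Affymetrix Mouse Gene ST arrays. The deposited values are log2 expression, computed by the authors with RMA in Partek (6.4 in the submitters' processing notes), so background correction, normalization and probe summarization preceded deposit. RMA draws low values together, so fold changes of dim genes are compressed. Whether arrays were run together is not given in the sources used here. Of 35556 rows, 21789 probe sets with 1 symbol were tested, and 1621 with several and 12146 with none were left out. 

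The 2 groups, of 2 arrays each, were compared with limma 3.58.1 (lmFit, eBayes, two-sided, no covariate) in R 4.3.3, with 2 residual and 2.72 prior degrees of freedom and Benjamini-Hochberg adjustment. The brightest probe set stood for a gene. All 7 further probe sets of members had the sign of the brightest and 0 passed. The number of arrays limits the precision: the confidence interval of a member reached a median of 0.17 log2 units to either side. Scripts were tested on simulated data. Members and gene lists were chosen with earlier results of these data known. Named were all called members, the 2 largest changes per role, a list of core genes, and up to 4 called genes of each other list, and further members were added beside their partners after their values were seen. Alternatives changed the probe sets tested, the scaling, the variance prior, the test, the pairing and the replicates. Promoter sequences are RefSeq's.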

Additional observations from a re-analysis of the deposited data

How the results depend on the processing

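The design of 2 arrays a group limits every call. All 6 called members passed with dim probe sets left out (beside 25.4% of genes), with the trended robust prior (21.6%) and by the methods' analysis of variance (11.9%). After subtraction of array medians 5 passed, after quantile normalization 4 and with the replicate block 1. All 6 also passed with the mean of a gene's probe sets, but none has a second probe set, so their values were unchanged. They kept their sign throughout, which was largely fixed in advance. A change of rows, prior, test or pairing leaves the fold change as it was. Leaving out an array cannot reverse groups that do not overlap, as in these 6. Members higher (4 as reported) numbered 10 with the trended robust prior, and 0 with all rows tested, with the analysis of variance after Benjamini-Hochberg adjustment and with the replicate block. Members lower (2) numbered 8 with dim probe sets left out, 8 with the trended prior, 6 by the analysis of variance, 1 after subtraction of array medians, and 0 with all rows tested and with the adjusted analysis of variance. With the block 1 was lower, Ctsz (adjusted p = 0.0486). Same-numbered samples share only a number, and their deviations correlated at -0.105, so the crossed pairing was added after seeing the data and gave 0 higher and 0 lower. With the block 18 members had an unadjusted p under 0.05, with the crossed pairing 23, with all rows tested 19, and by the analysis of variance 23. In the main fit 23 members did, beside 27.8% of all genes. For the other fits that share over all genes is not given here. Leaving out each array in turn gave a median log2 fold change of the members of -0.0029 to 0.0271. That median was 0.0016 as reported and 0.0598 after subtraction of array medians, beside -0.0121 and 0.0461 over all genes.

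Other pathway genes higher (5) numbered 15 with dim probe sets left out, 12 after subtraction of array medians, 18 with the trended prior and 9 by the analysis of variance. They numbered 0 with all rows tested, with the adjusted analysis of variance and with the block. Those lower (19) numbered 30 with dim probe sets left out, 41 with the trended prior, 7 with the block, 1 with all rows tested, and 0 with the adjusted analysis of variance. Calls over all genes moved too. They were 9.28% as reported, 25.4% with dim probe sets left out, 21.6% with the trended prior, 11.9% by the analysis of variance and 0.341% with all rows tested. After subtraction of array medians 1477 genes were higher and 727 lower. For the block no share over all genes is given here. A change of rows alters both the variance prior and the adjustment, and otherwise the cause was not tested. A fit with an array left out keeps 1 residual degree of freedom, so that few genes could pass it by design.

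Subtraction of array medians adds the same 0.058 to every log2 fold change, so that only values just below zero could change sign with it. The members that did so were Atp6v1b2 at 0.0424, Ctsb at 0.0348, Ctse at 0.0259, Ctsh at 0.0405, Gabarapl1 at 0.0198 and Sqstm1 at 0.0228. After quantile normalization the members that changed sign were Ctsh at 0.0140, Lamp1 at -0.0202 and Wipi2 at -0.0289. With an array left out, values crossed zero for Atp6v0e2 (-0.227 to 0.0587), Atp6v1b1 (-0.261 to 0.0935), Atp6v1b2 (-0.0318 to 0.0003), Atp6v1c2 (-0.252 to 0.0206), Atp6v1d (-0.271 to 0.0032), Atp6v1e2 (-0.0285 to 0.0318), Ctse (-0.103 to 0.0388), Ctsf (-0.0339 to 0.108), Ctsh (-0.0631 to 0.0277), Tfe3 (-0.220 to 0.0210) and Wipi2 (-0.0386 to 0.0493).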
